A study of Canis lupus familiaris with 2 samples.

Results

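CXCR7, the related receptor CXCR4, their shared ligand CXCL12 and 6 further chemokines that epithelial cells can make (CXCL10, CXCL14, CXCL16, CX3CL1, CCL2 and CCL20) were followed in MDCK cells, an established line from dog kidney that forms a sheet of columnar epithelium. The genes were taken by symbol, and all 9 were found among the 23510 features of the RNA sequencing. CXCR7 was chosen by its ratio of FPKM between the cultures, the smallest among features above 1 FPKM in both, so that its value is a description, whereas the other 8 were added by name as its relatives. The 2 samples were 1 culture under 2-cm-high medium, labelled as 2 cm H2O and as without pressure, and 1 culture under 50-cm-high medium, labelled as a pressure burden of 50 cm H2O, here called the 2-cm and the 50-cm culture. In both, 40000 cells were plated on a culture insert with a semipermeable membrane, kept in EMEM with serum and extracted at day 3. No value has a replicate, no test was possible, and no difference could be set against the spread between cultures.

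Chemokines are small secreted proteins that bind receptors of the G protein-coupled family and direct the movement of cells. CXCL12 binds CXCR4, which signals through inhibitory G proteins, and also CXCR7, now named ACKR3, an atypical receptor that recruits arrestin and takes CXCL12 and CXCL11 up from the surroundings instead of signalling through G proteins. CXCL16 and CX3CL1 are unusual chemokines made as membrane-spanning proteins, and metalloproteases of the ADAM family release their soluble forms.

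The authors' FPKM values relate the fragments on a gene to its exon length and to the size of the library. They are thus levels per length, and comparisons between genes are approximate, because the annotation behind the exon lengths is not given. Ratios are 50-cm over 2-cm FPKM, without a pseudocount. A gene was called past 2-fold where both values exceeded 1 FPKM and the ratio was above 2 or below 0.5. This applied to 1.67% of the 11057 features above 1 FPKM in both cultures, with 1.28% lower and 0.389% higher in the 50-cm culture, and the median log2 ratio of all of them was 0.01. As a yardstick, the scaled median absolute deviation (MAD) of the log2 ratio over the 500 features closest in mean level is given, which is a spread across genes and not replicate error. The simple epithelial markers KRT8, KRT18, KRT19, EPCAM, CDH1 and CLDN7 all had at least 211 FPKM in both cultures, and the kidney tubule factors PAX8 and PAX2 were present at 57.6 to 65.1 FPKM and 27.9 to 28.3 FPKM. Of the other kidney markers, CDH16 went from 1.96 to 0.676 FPKM and LHX1 from 0.819 to 1.05 FPKM. The summed FPKM of 7 fibroblast markers was 0.374 in the 2-cm and 0.401 in the 50-cm culture, and that of 7 endothelial markers was 0.51 and 0.277. Of 7 leukocyte markers in the files, PTPRC, CD3E, CD3D and LCP1 were listed at 0 in both cultures, CSF1R and CD79A lay below 0.1 FPKM, and CD14 stood at 4.82 and 3.77 FPKM.

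CXCR7 RNA stood at 7.43 FPKM in the 2-cm culture and at 1.28 FPKM in the 50-cm culture. It was thus 5.78-fold lower under the higher medium, a log2 ratio of -2.53, where the nearest 500 features had a scaled MAD of 0.42. With a pseudocount of 1 FPKM the log2 ratio was -1.88. In RNA from a whole culture, fewer cells with a transcript and less transcript per cell cannot be told apart. In the order of ratios CXCR7 was followed by KIAA1755, which had 10.7 and 1.98 FPKM and a ratio of 0.185. Among features above 1 FPKM in both cultures, a further 540 had a 2-cm level within 10% of that of CXCR7. Any feature of this level that fell to 1 FPKM or less in the 50-cm culture is left out. Of the 540 features, 16 were past 2-fold. The median ratio of the 540 was 0.961, and the lowest, that of RLBP1, was 0.213. CXCR7 was chosen for the lowest ratio among features above 1 FPKM in both cultures, so its place below these features was fixed in advance. Its 50-cm level of 1.28 FPKM lay close to the minimum of 1 FPKM, and features below the minimum were not ranked.

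CXCR4, the signalling receptor of the pair, had 10.2 FPKM in the 2-cm culture and 9.57 FPKM in the 50-cm culture. Its ratio of 0.941 lay at -0.35 scaled MADs on the log2 scale. CXCR4 RNA was 1.37 times as abundant as CXCR7 RNA in the 2-cm culture and 7.45 times as abundant in the 50-cm culture. CXCR7 made up 42.2% of the summed FPKM of both receptors in the first culture and 11.8% in the second, while the sum went from 17.6 to 10.9 FPKM. The multiples and percentages are ratios within 1 library, which a common scaling of that library leaves as they are, whereas the sums depend on it. Their shift between the cultures restates the ratios of CXCR7 and CXCR4, and CXCR7 was chosen for its ratio.

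**Figure D1:**
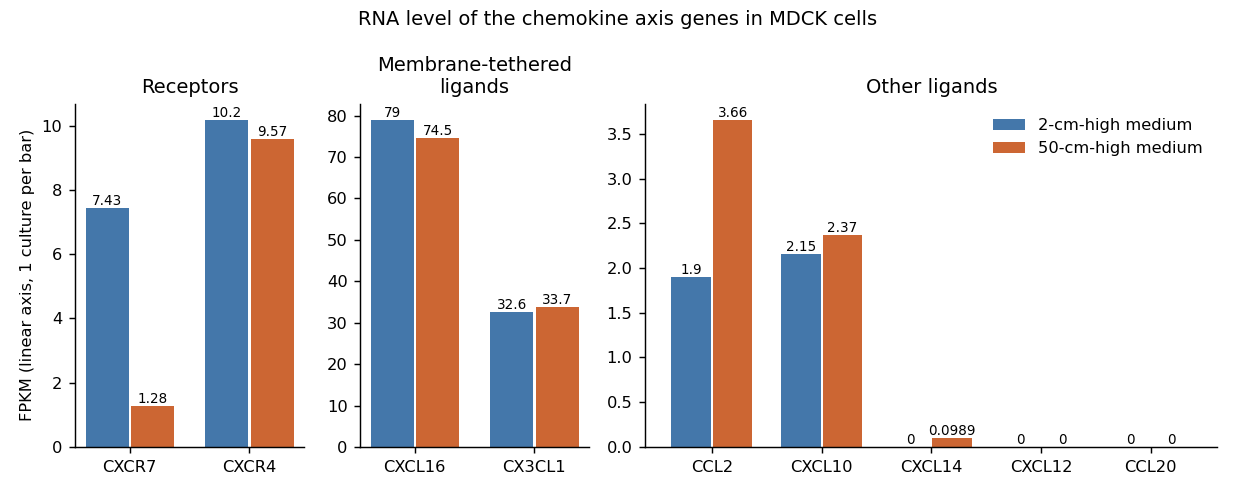
FPKM of the 9 genes in the 2-cm culture (blue) and the 50-cm culture (orange), 1 culture per bar, on linear axes that start at 0 and differ between the panels. CXCR7 went from 7.43 to 1.28 FPKM beside a CXCR4 level of 10.2 and 9.57 FPKM, CXCL16 and CX3CL1 were the highest ligands, and CXCL12 and CCL20 were listed at 0 in both.

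CXCL12, the ligand of both receptors, was listed at 0 FPKM in both cultures. CXCL11, the other chemokine that CXCR7 binds, was also listed at 0 in both. CCL20, a ligand of CCR6 that mucosal epithelia can release, was likewise listed at 0 in both. CXCL14, a chemokine of many resting epithelia, was listed at 0 in the 2-cm culture and at 0.0989 FPKM in the 50-cm culture. A value of 0 in files without read counts can also be a failed estimate, and in all 7740 of the 23510 features (32.9%) were at 0 in both cultures, so the zeros do not show that these transcripts were missing.

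CXCL16 was the highest of the 9 genes, with 79.0 FPKM in the 2-cm culture and 74.5 FPKM in the 50-cm culture. Its ratio was 0.944, or -0.43 scaled MADs on the log2 scale. CX3CL1, also called fractalkine, came next with 32.6 and 33.7 FPKM and a ratio of 1.03. These membrane-tethered chemokines together held 96.5% of the FPKM summed over the 7 ligands in the 2-cm culture and 94.6% in the 50-cm culture, and the sum itself was 115.6 and 114.3 FPKM. CXCL16 was 2.42 times as abundant as CX3CL1 in the first culture and 2.21 times in the second.

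CXCL10, an interferon-inducible ligand of CXCR3, had 2.15 FPKM in the 2-cm culture and 2.37 FPKM in the 50-cm culture, a ratio of 1.098. CCL2, which attracts monocytes through CCR2, had 1.90 FPKM in the 2-cm culture and 3.66 FPKM in the 50-cm culture. Its ratio of 1.92 was the highest of the 6 that could be computed and had rank 51 from the top among all features tested. It stayed under 2-fold, but passed it (1.12 on the log2 scale) after quantile normalization. The log2 ratio of 0.94 was 2.35 times the scaled MAD of 0.40 among features of similar level.

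In all, 6 of the 9 genes were above 1 FPKM in both cultures, and 1 of these 6 was past 2-fold, against 1.67% of all features tested, namely CXCR7, whose own ratio put it in the list, so nothing can be read from that count. The 6 log2 ratios had a median of -0.02 and were split evenly, with 3 above 0 and 3 below. Ratios within 1.1-fold of 1, a range set after the values had been seen, were found for CXCR4, CXCL16, CX3CL1 and CXCL10, that is for 4 of the 6, and for 42.6% of all features tested. In order of level, CXCL16, CX3CL1 and CXCR4 held the first 3 places in both cultures. CXCR7 followed them in the 2-cm culture but came last of the 6 in the 50-cm culture, below CCL2 and CXCL10, which themselves changed places. Which neighbours in this order differ beyond the spread between cultures cannot be said from 1 culture each.

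**Figure D2:**
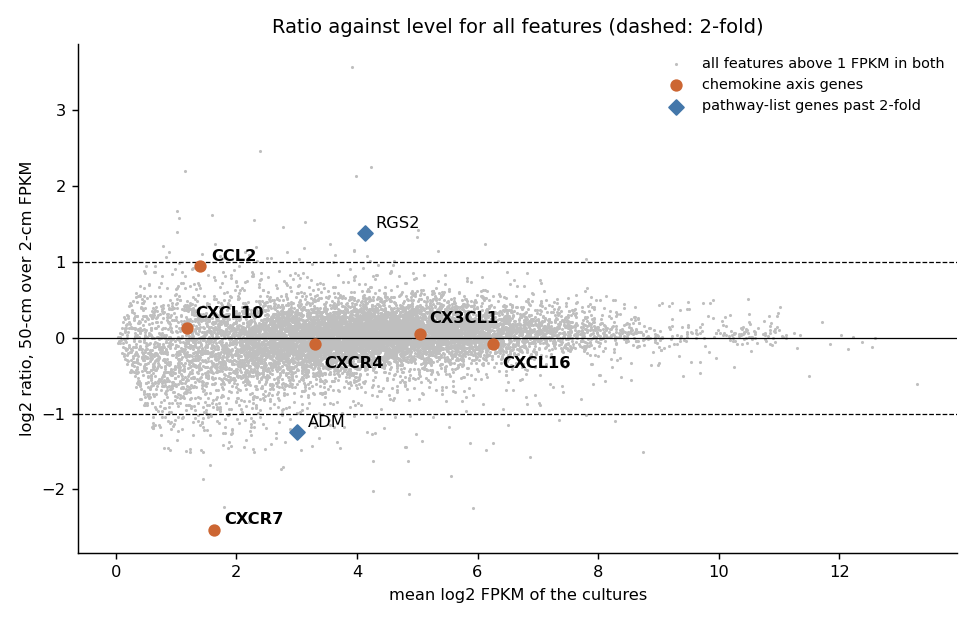
Log2 ratio of 50-cm over 2-cm FPKM against the mean log2 FPKM of the cultures for the 11057 features above 1 FPKM in both (grey), with the 6 chemokine axis genes that passed this minimum (orange) and the 2 genes of the pathway lists past 2-fold (blue diamonds). CXCR7 lies at -2.53, at the lower edge of the cloud, CCL2 at 0.94, just under the upper dashed 2-fold line, and the other 4 close to 0.

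The number of reads per library is not known, but the lowest values keep traces of whole reads. Of 574 features listed below 0.1 FPKM but not at 0 in either culture, 215 shared a ratio of 1.098 to within 0.05%, that of 1 read in each library, so the FPKM of a single read was 9.77% higher in the 50-cm culture. The ratio of CXCL10 lay within 0.003% of this value, as equal read numbers in both libraries give. The ratio of CCL2 lay within 0.003% of that given by 7 reads in the 50-cm culture for every 4 in the 2-cm culture. The ratio of CXCR4 matched 6 reads for every 7. Multiples of these pairs give the same ratios, so the true numbers may be larger. Of all features with a geometric mean level of 2 to 5 FPKM, the range of CXCL10 and CCL2, 5.48% lay at a ratio of at most 10 reads in each library, and of those at 5 to 10 FPKM, the range of CXCR4, 1.69% did. CXCR7, CXCL16 and CX3CL1 lay at no such ratio.

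The 5 features closest to CXCR7 in both log2 FPKM values, out of all features above 1 FPKM in both cultures, were RLBP1, DHRS3, LOC102152163, TSPAN1 and MAB21L3. RLBP1, which encodes a retinaldehyde-binding protein, was nearest, at a distance of 0.32 log2 units, with 7.52 and 1.60 FPKM. DHRS3, a retinaldehyde reductase, followed at 0.54, with 5.18 and 1.42 FPKM. The remaining 3 lay at 0.61 to 0.81, with ratios of 0.314 to 0.359. With 1 value per culture, this likeness rests on only 2 samples.

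Gene order was read from the RefSeq annotation of the dog assembly UU_Cfam_GSD_1.0, which is not the CanFam3.1 build the reads were mapped to, and 8 of the 9 genes had an entry there. CXCR7 stood between IQCA1, listed at 0 in both cultures, and COPS8, a subunit of the COP9 signalosome, which had 32.1 FPKM in the 2-cm culture and 32.6 FPKM in the 50-cm culture. The next genes out, ASB18 and COL6A3, were at 0 in both and at 0 and 0.0186 FPKM. Of these neighbours only COPS8 was above 1 FPKM, and its ratio was 1.01. CX3CL1 lay between CCL17 and CCL22, chemokines that share the receptor CCR4. CCL17 stood between CXCL16 and CX3CL1 in level, with 66.4 FPKM in the 2-cm culture and 54.0 FPKM in the 50-cm culture (ratio 0.813), whereas CCL22 was listed at 0 in both. CXCL10 overlaps ART3, which went from 3.63 to 6.36 FPKM (ratio 1.75). CXCL16 overlaps ZMYND15, which went from 2.21 to 1.07 FPKM (ratio 0.485), and MED11, with 38.2 and 39.1 FPKM. The libraries kept strand, but whether the counting used it is not stated, and the part of shared reads in the values of CXCL10 and CXCL16 was not tested.

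Of 17 further chemokine receptors, 11 were listed at 0 in both cultures, among them CX3CR1, CCR2, CCR4 and CCR6, the receptors of CX3CL1, CCL2, CCL17 and CCL20. CXCR3, the receptor of CXCL10, was listed at 0 in the 2-cm culture and at 0.0826 FPKM in the 50-cm culture. CXCR6, the receptor of CXCL16, went from 2.78 to 1.88 FPKM (ratio 0.677, -1.22 scaled MADs on the log2 scale). CXCR5, best known from B cells, had 8.94 and 8.21 FPKM. CXCR6 and CXCR5 were the only ones of the 17 above 1 FPKM in both, with a median log2 ratio of -0.34. Neither was past 2-fold, against 1.67% of all features tested, and the other receptors could not be called. In the RefSeq annotation CXCR6 overlaps FYCO1, which had 8.87 and 6.71 FPKM, and CXCR5 overlaps BCL9L, which had 24.6 and 21.8 FPKM. The part of these overlapping genes in the receptor values was not tested. Among the other atypical receptors, DARC and ACKR2 were listed at 0 in both, and ACKR4 was at 0 and 0.0585 FPKM.

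Of 34 further chemokines, 22 were in the files and 13 of these were listed at 0 in both cultures. CCL17, CCL27 and PPBP were above 1 FPKM in both, and none of them was past 2-fold, against 1.67% of all features tested. The single CXC chemokine among these genes, PPBP, a platelet chemokine, went from 3.52 to 4.50 FPKM, a log2 ratio of 0.35. CCL27, an epithelial chemokine of the skin, went from 13.5 to 18.9 FPKM (ratio 1.40). CCL27 overlaps IL11RA, at 3.15 and 3.05 FPKM, in the annotation. The CC chemokines CCL17 and CCL27 had a median log2 ratio of 0.09. CCL28, a chemokine of mucosal epithelia, had 1.49 FPKM in the 2-cm culture and was listed at 0 in the 50-cm culture.

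CXCR7 also takes up ligands that are not chemokines. ADM, which encodes adrenomedullin, a vasodilator peptide that CXCR7 can clear, had 12.3 FPKM in the 2-cm culture and 5.19 FPKM in the 50-cm culture. It was thus past 2-fold lower, with a ratio of 0.421 and a log2 ratio of -1.25 where the scaled MAD was 0.28. CALCRL, the signalling receptor of adrenomedullin, was listed at 0 in both cultures, and its partner RAMP2 was at 0.212 and 0 FPKM. CD74, a receptor for the cytokine MIF that can pair with CXCR4, went from 397 to 279 FPKM (ratio 0.701). HMGB1, a nuclear protein that binds CXCL12 when released, had 447 and 419 FPKM. In this list of ligands and partners 1 of the 3 genes above 1 FPKM was past 2-fold, against 1.67% of all features, and the median log2 ratio was -0.51. The list was written with earlier results of these data known, so nothing can be read from the count.

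Of 21 genes that couple receptors to their signals or move them within the cell, 16 were above 1 FPKM in both cultures. Of the 16 genes, 12 had a ratio above 1, 4 had a ratio below 1, and the median log2 ratio was 0.08. Of all features tested, 5820 had a ratio above 1 and 5236 a ratio below 1. ARRB2, an arrestin, had 10.8 FPKM in the 2-cm culture and 13.7 FPKM in the 50-cm culture (ratio 1.27), and ARRB1 was at 0 and 0.052 FPKM. GNAI2, an inhibitory G protein subunit through which CXCR4 signals, had 91.8 and 100.4 FPKM, and GNB1, the most abundant gene of the list, had 294 and 300.4 FPKM. RGS2, which speeds the shut-off of G protein signals, went from 10.9 to 28.2 FPKM. Its ratio of 2.60 lay 6.92 scaled MADs above 0 on the log2 scale. It was the only one of the 16 past 2-fold, against 1.67% of all features tested. RGS19 (ratio 1.40) and RGS3 (ratio 1.63) stayed under 2-fold.

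**Figure D3:**
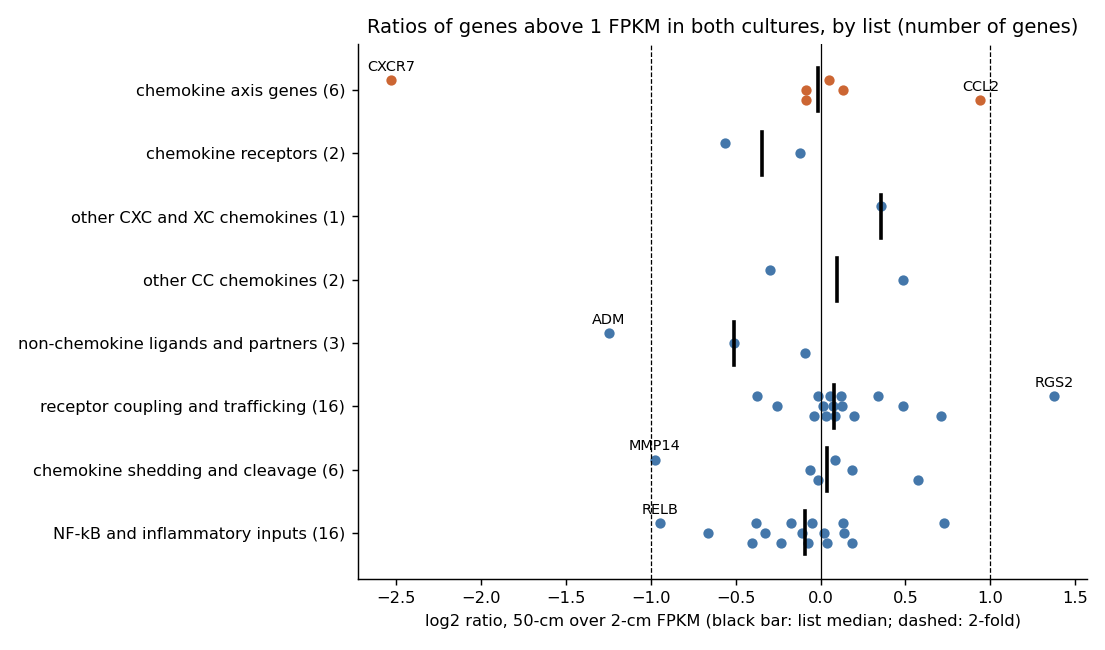
Log2 ratio of 50-cm over 2-cm FPKM for each gene above 1 FPKM in both cultures, by list, with the list median as a black bar and 2-fold as dashed lines. Most points lie between the dashed lines, ADM and RGS2 are the genes of the pathway lists beyond them, and CXCR7 lies farthest to the left at -2.53.

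The proteases that release CXCL16 and CX3CL1 from the membrane were present in both cultures. ADAM10 had 55.5 FPKM in the 2-cm culture and 53.1 FPKM in the 50-cm culture, and ADAM17 had 44.0 and 43.6 FPKM. TIMP3, an inhibitor of ADAM17, went from 66.8 to 99.5 FPKM (ratio 1.49, 2.79 scaled MADs above 0 on the log2 scale). MMP14, a membrane protease that can cleave CXCL12, went from 2.58 to 1.31 FPKM with a ratio of 0.508, just short of the 2-fold limit, which it passed when each culture was rescaled to an equal sum. DPP4, which also trims CXCL12, was listed at 0 in both. The 6 genes of this list above 1 FPKM had a median log2 ratio of 0.04. None of them was past 2-fold, against 1.67% of all features tested.

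NF-kB factors and inflammatory cytokines induce CCL2, CXCL10 and CCL20 in many epithelia. The list held NF-kB, IRF and STAT factors, NF-kB inhibitors and kinases, cytokines, cytokine receptors and the NF-kB target ICAM1. Of its genes, 21 were in the files and 16 were above 1 FPKM in both cultures. None of these 16 was past 2-fold, against 1.67% of all features. The 16 genes had a median log2 ratio of -0.09, with 6 ratios above 1 and 10 below. RELB had the lowest ratio, 0.52, with 5.09 FPKM in the 2-cm culture and 2.65 FPKM in the 50-cm culture. NFKBIA, the inhibitor that NF-kB itself induces, went from 27.1 to 17.2 FPKM (ratio 0.632, -3.36 scaled MADs on the log2 scale). ICAM1, an adhesion molecule, went from 21.9 to 36.3 FPKM (ratio 1.65, 3.54 scaled MADs above 0). NFKBIB, another inhibitor of NF-kB and the most abundant gene of the list in the 2-cm culture, had 43.3 and 41.2 FPKM. RELA had 32.0 and 32.5 FPKM, and TNFRSF1A, the most abundant gene of the list in the 50-cm culture, had 41.9 and 47.6 FPKM. TNF and IL6 were listed at 0 in both cultures. Over the 8 lists together, 2 of 46 genes above 1 FPKM in both cultures (4.35%) were past 2-fold, against 1.67% of all features. All 8 lists were written with earlier results of these data known. Nothing can therefore be read from this share or from the count of any list.

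**Figure D4:**
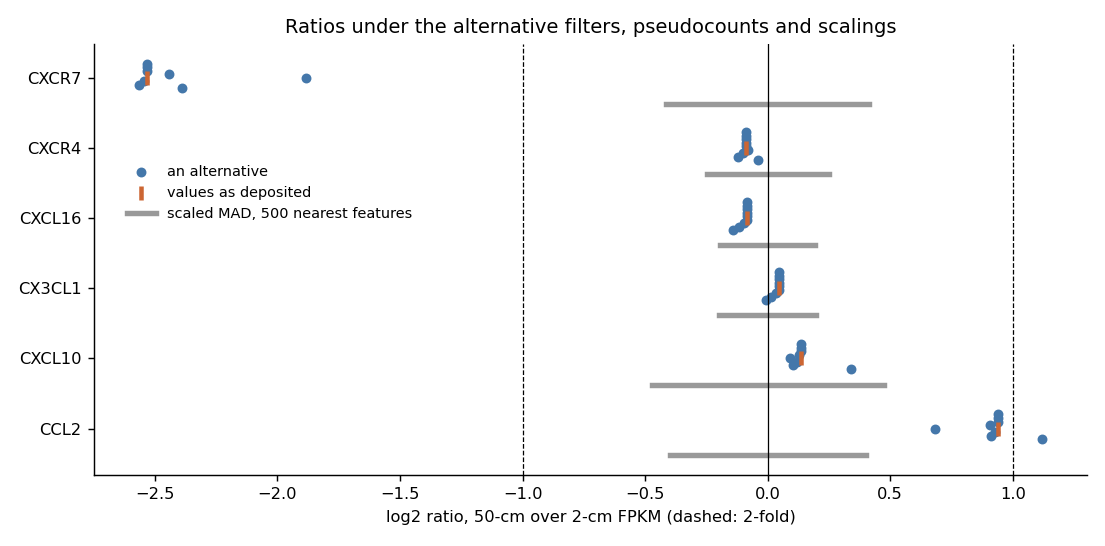
Log2 ratio of 50-cm over 2-cm FPKM of the 6 genes above 1 FPKM in both cultures, from the values as deposited (orange) and under each alternative filter, pseudocount or scaling that kept the gene (blue), with the scaled MAD of the 500 nearest features to either side of 0 (grey bars). CXCR7 stays between -2.56 and -1.88, CCL2 ranges from 0.68 to 1.12 across the 2-fold line, and the other 4 stay between -0.14 and 0.34. A filter can remove a gene but cannot change its ratio.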

How the data were processed

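RNA of 1 MDCK culture per medium height was sequenced. The authors made stranded mRNA libraries, read 75 bases from single ends, and deposited FPKM values per gene symbol that Cuffnorm 2.2.1 gave after mapping by Bowtie 2 2.2.3 within TopHat 2.0.13, with SAMtools 0.1.19, on the CanFam3.1 genome. The scaling and the annotation are not given in the sources used here. Read totals are unknown, so no counting interval was computed. Ratios of 50-cm over 2-cm FPKM had no pseudocount and were called past 2-fold only with more than 1 FPKM on both sides, in Python 3.11.15, numpy 2.4.6 and pandas 2.3.3, and figures with matplotlib 3.10.9. Because each group has 1 sample, no test was run. The scripts were tested on simulated data. The members and the lists of receptors, ligands, partners, coupling, shedding, NF-kB and marker genes were chosen with earlier results of these data known. Named are all members, list genes past 2-fold or else the 2 most extreme, up to 2 of the highest per list, the 5 features nearest to CXCR7 and its neighbour in the order of ratios. Not every gene of this rule is named. Receptors, partners and gene neighbours of the members and further list genes (among them RGS3, RGS19, RELA and NFKBIA) are also named, and were chosen after their values were seen. RefSeq entries matched 106 of 110 symbols. The alternatives were 4 other FPKM minima, 2 pseudocounts and 3 scalings.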

Additional observations from a re-analysis of the deposited data

How the results depend on the processing

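CXCR7 was below -1 on the log2 scale under the 2 pseudocounts and 3 scalings. It ranged from -2.56 after rescaling to an equal sum to -1.88 with a pseudocount of 1 FPKM, which understates low genes. An FPKM minimum can remove a gene but cannot change its ratio. A minimum of 5 FPKM removed CXCR7, CXCL10 and CCL2 and left 0 members past 2-fold. Quantile normalization gave 2, because CCL2 then reached 1.12. With minima of 0.1 and 0 FPKM, 5 and 8 genes of the pathway lists were past 2-fold in place of 2. The count over all features rose as well, so nothing is read from this. It went from 185 of 11057 to 730 of 13280 above 0.1 FPKM and to 1216 of 14306 above 0. Above 1 FPKM in at least one culture it was 356 of 11508, and above 5 FPKM it was 62 of 8751. With a pseudocount of 1 it was 92 of 11057. ADM and RGS2 stayed past 2-fold under the 2 pseudocounts and 3 scalings, from -1.28 to -1.11 and from 1.30 to 1.37. Rescaling to an equal sum put 2 genes of the lists past 2-fold lower in place of 1, because MMP14 crossed the limit. CX3CL1, near 0, ranged from -0.01 to 0.05. With 1 culture per height, leaving out a replicate was not possible. No paired analysis was possible because each group has 1 sample.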

Other observations

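Several chemokines had values below 1 FPKM and were left out of the calls. CCL7, beside CCL2 in the RefSeq order, was listed at 0 in 2-cm-high medium and at 0.766 FPKM in 50-cm-high medium, whereas CCL8, the next gene, was at 0 in both. CCL5 had 0.241 and 0.927 FPKM, a ratio that 7 reads against 2 give. CCL14 had 0.358 and 0.982 FPKM, a ratio that 5 reads against 2 give. CCL25 had 0.253 and 0.139 FPKM, a ratio that 1 read against 2 gives. IL8, which encodes the neutrophil chemokine CXCL8, had 0.0545 and 0.12 FPKM, a ratio that 2 reads against 1 give. Multiples of these read numbers give the same ratios, and at such levels a ratio past 2-fold can be a difference of few reads.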
